A study of Mus musculus with 6 samples.

Results

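Ppara, Cpt1a, Acaa2 and Pex11a are a nuclear receptor and 3 genes of fatty acid oxidation and the peroxisome. They were measured by 4 of the 50 mRNA probes on a circular RNA (circRNA) array of 14286 circRNA and mRNA probes. Per the titles, 3 arrays held RNA from normal kidney cortex and 3 held RNA from kidney cortex of DKI mice. DKI is read here as diabetic kidney injury, which the titles do not spell out. All mice were male. Strain, age and the way the DKI state was produced are not given in the sources used here. Other label fields name surgical liver tumour tissue and a human array, so the groups rest on the titles, and the array header and the probes are those of the mouse. The titles do not say whether arrays of a group came from separate animals, so the spread between them may be technical. The 4 probes were picked by name, A_51_P348334 for Ppara, A_51_P427674 for Cpt1a, A_51_P125260 for Acaa2 and A_51_P456957 for Pex11a, with their differences between both groups already known. Those differences are therefore given below as a description, with their errors and without a test.

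PPAR-alpha, the product of Ppara, is a nuclear receptor that binds fatty acids. As a heterodimer with RXR it switches on genes that take up fatty acids into mitochondria and peroxisomes and burn them there. Cpt1a encodes the liver-type carnitine palmitoyltransferase of the outer mitochondrial membrane, which loads long-chain fatty acids onto carnitine and sets the pace of their import. Acaa2 encodes a thiolase of the mitochondrial matrix that cuts acetyl-CoA from the shortened chain in the last step of beta-oxidation. Pex11a encodes a peroxisome membrane protein that helps peroxisomes elongate and divide. All 3 are known targets of PPAR-alpha, and the proximal tubule of the kidney cortex draws most of its energy from fatty acids.

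PPAR-alpha and RXR bind direct repeats of AGGTCA spaced by a single base. RefSeq promoters of assembly GRCm38.p6, from 250 bases before to 50 bases after the gene's start, were listed for Ppara (chr15:85735526-85735825, plus strand), Cpt1a (chr19:3323051-3323350, plus strand) and Pex11a (chr7:79743082-79743381, minus strand). They are printed 5′ to 3′ because the receptor and its targets are the subject here, with each AGGTCA on either strand in capitals.
Ppara: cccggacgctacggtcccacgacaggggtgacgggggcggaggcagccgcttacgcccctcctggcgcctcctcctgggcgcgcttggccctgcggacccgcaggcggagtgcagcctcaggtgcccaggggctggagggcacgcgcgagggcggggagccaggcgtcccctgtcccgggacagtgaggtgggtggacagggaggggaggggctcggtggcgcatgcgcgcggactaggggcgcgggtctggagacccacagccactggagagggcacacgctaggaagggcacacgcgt
Cpt1a: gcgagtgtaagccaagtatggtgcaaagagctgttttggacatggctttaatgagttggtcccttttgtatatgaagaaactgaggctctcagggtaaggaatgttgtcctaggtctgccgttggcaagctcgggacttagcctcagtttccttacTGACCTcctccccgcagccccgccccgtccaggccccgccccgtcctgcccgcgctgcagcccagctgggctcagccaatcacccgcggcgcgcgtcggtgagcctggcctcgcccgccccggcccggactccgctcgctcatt
Pex11a: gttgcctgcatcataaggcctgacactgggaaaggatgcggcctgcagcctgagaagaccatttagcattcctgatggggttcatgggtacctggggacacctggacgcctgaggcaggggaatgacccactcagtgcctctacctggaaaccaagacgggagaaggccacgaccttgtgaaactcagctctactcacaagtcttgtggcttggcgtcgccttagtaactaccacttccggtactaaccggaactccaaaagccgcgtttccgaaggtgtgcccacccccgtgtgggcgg
The half-site AGGTCA was found in the Cpt1a promoter alone of these 3, on the minus strand, at bases 157 to 162 of the 300, where the printed strand reads TGACCT. It occurs on either strand in 16.3% of all 32851 promoters of that length. The full repeat AGGTCANAGGTCA was found in none of the 3, even with 2 mismatches allowed, against 0.0396% of all promoters without a mismatch and 3.86% with up to 2. These matches describe letters within these windows only, and sites elsewhere in the genes were not searched. The Ppara promoter was 74.7% G and C, Cpt1a 62.3% and Pex11a 57.3%, where the median promoter had 52.7%.

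Each probe had 10 spots on every array. All 240 spots of the 4 probes were well above background, none was saturated, and 8 were marked as outliers by the scanner software. Values are log2 processed signals averaged over the 10 spots, minus the 75th percentile of log2 signal over the circRNA probes of the same array. A value of 0 is thus the level below which 75% of the array's circRNA probes lie. The 75th percentile itself was between 92.3 and 219 signal units. DKI replicate 3 stood apart from the rest: its bright-corner control spots had a median signal of 9317, against 33156 to 76690 on the other 5 arrays. The differences of the 4 probes are given with and without it.

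Ppara was the member with the most different signal, 3.93-fold higher in DKI cortex on average. Its scaled log2 signal was 1.02, 1.02 and 0.23 on normal replicates 1, 2 and 3, and 1.97, 2.49 and 3.74 on DKI replicates 1, 2 and 3. All 3 DKI arrays lay above all 3 normal arrays, with a gap of 0.94 between the highest normal and the lowest DKI array. The group means were 0.76 ± 0.45 (SD, n = 3) and 2.73 ± 0.91, a difference of 1.98 (SE 0.47, 95% interval 0.88 to 3.07). Normal replicates 1 and 2 were alike within the spread of their spots (SD 0.043 on each), whereas the 3 DKI arrays differed from each other by far more than their spots did. Normal replicate 3 and DKI replicate 3 were the extremes of all 6 arrays. Without DKI replicate 3 the difference was 1.47. On the slide that held 1 array of each group, DKI replicate 1 exceeded normal replicate 1 by 0.95.

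The separation of Ppara did not need any scaling between arrays. In raw processed signal its 30 spots on normal arrays ran from 101 to 281 and its 30 spots on DKI arrays from 825 to 1469, so every DKI spot was brighter than every normal spot. Spots of 1 array share its RNA and are not replicates. Of the 15 negative control probes, 1 was brighter than Ppara on normal replicate 3 and 0 were on the other arrays. The mean signals (geometric) were 225, 269.8 and 114 on normal replicates 1 to 3, and 855, 888 and 1237 on the DKI arrays. DKI replicate 3 thus had the brightest Ppara spots of all arrays although its control spots and negative controls were the dimmest.

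**Figure D1:**
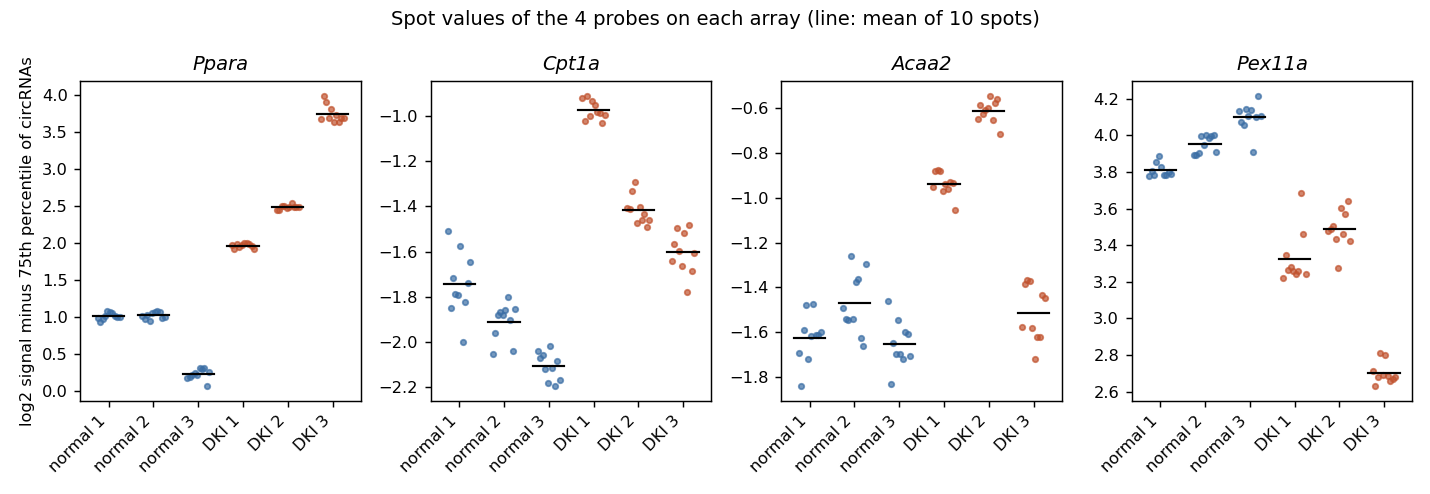
Scaled log2 signal (vertical axis, relative to the 75th percentile of the circRNAs of the array) of each of the 10 spots per probe on the 3 normal (blue) and 3 DKI (orange) arrays, with the mean of the spots as a line; each panel has its own axis. Ppara lay between 1.97 and 3.74 on DKI arrays against 0.23 to 1.02 on normal arrays, Pex11a was lower on every DKI array, and Acaa2 of DKI replicate 3 lay within the normal range.

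Cpt1a, the gate of mitochondrial import, was higher in DKI cortex by a smaller amount, 1.5-fold on average. Its scaled signal was -1.74, -1.91 and -2.11 on normal replicates 1 to 3 and -0.97, -1.42 and -1.60 on DKI replicates 1 to 3. The lowest DKI array was above the highest normal one, but by 0.14, less than the SD of 0.18 between normal arrays. DKI replicate 3 and normal replicate 1 are therefore neighbours that do not differ beyond the spread between arrays. The means were -1.92 ± 0.18 and -1.33 ± 0.32 (SD, n = 3), a difference of 0.59 (SE 0.27, 95% interval -0.034 to 1.21). Without DKI replicate 3 the difference was 0.73. Without scaling, or relative to the median mRNA probe, the groups overlapped. Within the DKI group the order was the reverse of Ppara's: replicate 1 had the highest Cpt1a and the lowest Ppara, and replicate 3 the lowest Cpt1a and the highest Ppara.

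Acaa2, the thiolase, was 1.48-fold higher on average, but the groups overlapped. Its scaled signal was -1.62, -1.47 and -1.65 on normal replicates 1 to 3 and -0.94, -0.61 and -1.51 on DKI replicates 1 to 3. DKI replicates 1 and 2 lay above all normal arrays, by 0.65 and 0.97 relative to the normal mean, while DKI replicate 3 lay 0.069 above that mean and below normal replicate 2. The means were -1.58 ± 0.098 and -1.02 ± 0.46 (SD, n = 3), a difference of 0.56 (SE 0.29, 95% interval -0.12 to 1.24), 0.81 without DKI replicate 3 and 0.36 without DKI replicate 2. With the median over spots, normexp or the negative control level subtracted, the lowest DKI array was above the highest normal one. Without scaling, DKI replicate 3 lay within the normal range, and relative to the median mRNA probe it lay below all normal arrays.

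Both mitochondrial probes were dim. Cpt1a spots had mean signals of 33.3, 35.3 and 22.4 on normal arrays and 111, 59.4 and 30.4 on DKI arrays, and Acaa2 spots 36.2, 47.9 and 30.7 and then 114, 104 and 32.3. In raw signal, DKI replicate 3 lay within the normal range for both. The mean of the 15 negative control probes lay between 6.44 and 15.9 signal units. Cpt1a was 1.53-fold to 7.0-fold and Acaa2 2.10-fold to 7.96-fold above that mean. Between 2 and 5 of the 15 negative controls were brighter than Cpt1a on an array, and between 2 and 4 were brighter than Acaa2. The negative controls themselves differed between groups after scaling, by -0.78 on average and with -0.42 to -1.32 for single probes, the opposite sign to Cpt1a and Acaa2. Their part in the differences was not tested. With the median negative control signal subtracted from each spot, an alternative chosen after seeing the data, the differences were 1.39 for Cpt1a and 1.0 for Acaa2. With normexp background correction, which adds an offset of 50 to every signal, they were 0.20 and 0.24.

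**Figure D2:**
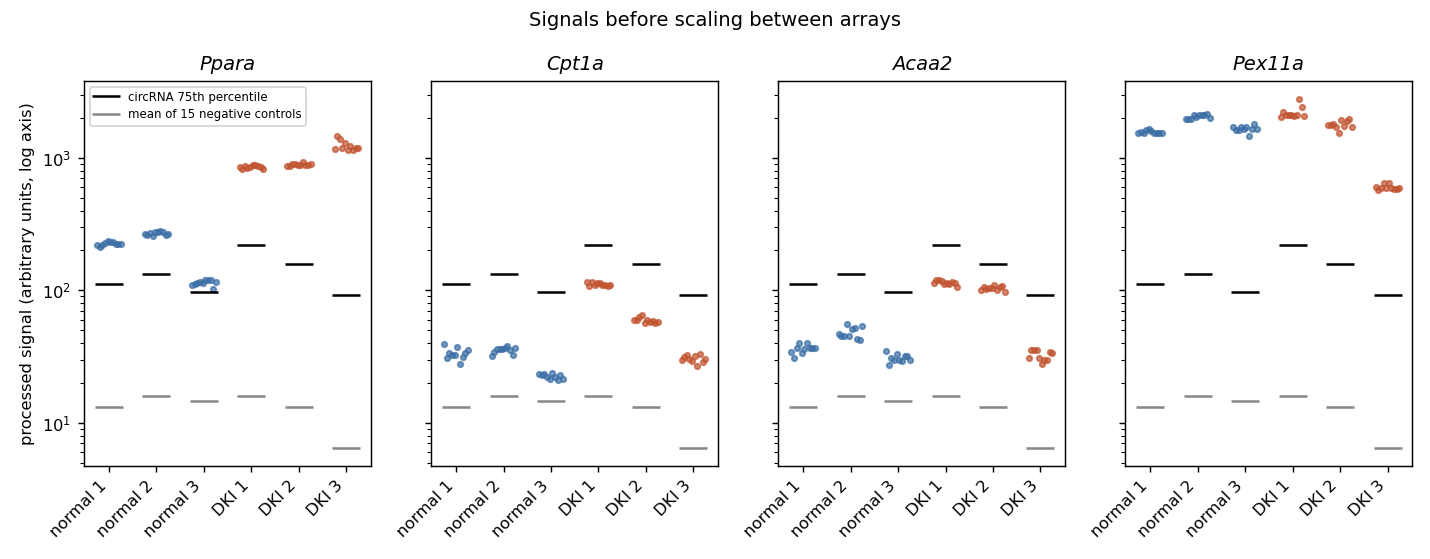
Processed signal (log axis, arbitrary units) of the same spots before scaling, for normal (blue) and DKI (orange) arrays, with the 75th percentile of the circRNAs (black) and the geometric mean of the 15 negative control probes (grey) of each array. Cpt1a and Acaa2 sat close above the negative controls. The mean Pex11a signal of DKI replicate 1 lay above those of all normal arrays and that of replicate 2 within their range. The Pex11a spots of DKI replicate 3 lay between 572 and 648.

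Pex11a, the peroxisome division factor, went the other way and was 1.72-fold lower in DKI cortex. Its scaled signal was 3.81, 3.95 and 4.10 on normal replicates 1 to 3 and 3.33, 3.49 and 2.70 on DKI replicates 1 to 3. The highest DKI array lay 0.32 below the lowest normal one. The means were 3.95 ± 0.14 and 3.17 ± 0.42 (SD, n = 3), a difference of -0.78 (SE 0.29, 95% interval -1.44 to -0.12). Without DKI replicate 3 the difference was -0.55. After scaling, all 30 DKI spots lay below all 30 normal spots, but spots of 1 array are not replicates. In raw signal, 10 of the 30 DKI spots lay below all normal spots and 3 lay above all of them. This probe was bright, 93.2-fold to 138-fold above the mean of the negative controls on every array, and none of the 15 negative controls exceeded it. Relative to that mean, its log2 signal was 6.89, 7.02 and 6.82 on normal replicates 1 to 3 and 7.11, 7.09 and 6.54 on DKI replicates 1 to 3, a difference of 0.0033 with overlapping groups. The negative controls differed by -0.78 after scaling, as Pex11a did, and their part in its difference was not tested. Relative to the same mean, Ppara differed by 2.76, Cpt1a by 1.37 and Acaa2 by 1.35.

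The lower Pex11a value in DKI replicates 1 and 2 also depended on the scaling. Its mean signals before scaling were 1562, 2052 and 1655 on normal arrays and 2191, 1778 and 600.2 on DKI arrays. DKI replicate 1 was thus brighter than all normal arrays, replicate 2 lay within their range, and replicate 3 alone was dimmer. The 75th percentile of the circRNAs was higher on DKI replicates 1 and 2 (219 and 159) than on the normal arrays (96.7 to 133), which lowers their scaled values. Without scaling, the difference was -0.39, the groups overlapped, and the median of all 50 mRNA probes was 0.18 where it was -0.21 with scaling. Relative to the median mRNA probe of each array the Pex11a difference was -0.70, again with no overlap.

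Among the 50 mRNA probes, 17 were higher on average in DKI and 33 lower, with a median difference of -0.21. Of the 4 members 3 were higher and 1 lower, with a median of 0.58. In order of the difference, Ppara was the highest of the 50, Cpt1a the 4th, Acaa2 the 8th and Pex11a the 5th from the bottom. The groups did not overlap for 3 of the 4 members, and for 11 of the 50 mRNA probes, 22.0%. Of the 11, 2 were higher in DKI, Ppara and Cpt1a, and 9 were lower, Pex11a among them. Without DKI replicate 3 the groups did not overlap for all 4 members and for 32 of the 50 probes, 64.0%. Because the members were picked on this contrast, nothing is read from their places. Limma called 0 of the 50 probes at an adjusted p under 0.05 (0.000%), and 6 had an unadjusted p under 0.05. Without DKI replicate 3 it called 15 of the 50, 30.0%.

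**Figure D3:**
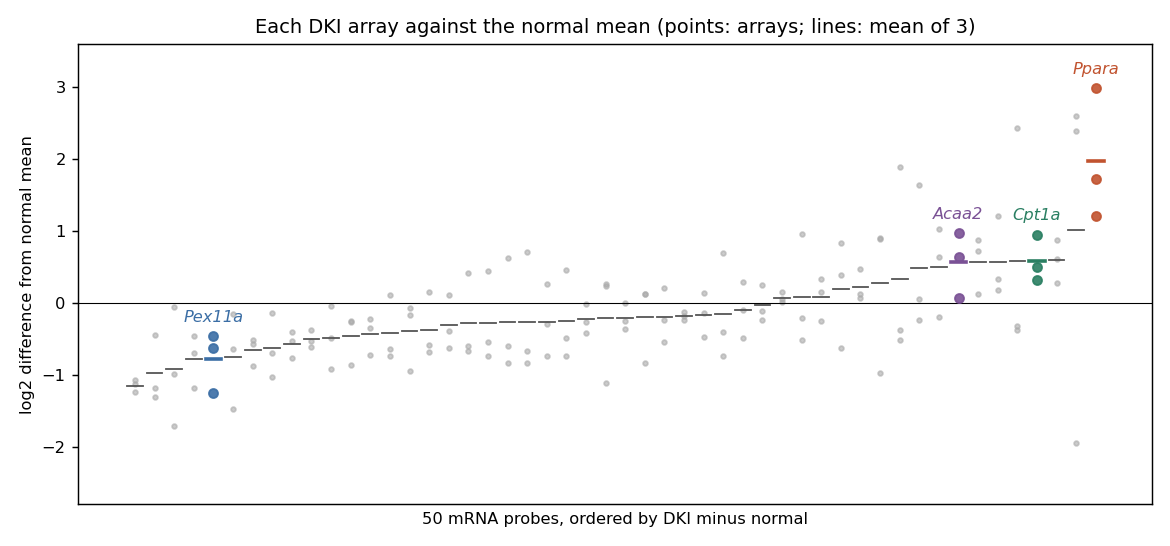
Difference of each DKI array (points) from the mean of the normal arrays on the log2 scale, and the mean of the 3 (lines), for all 50 mRNA probes in order of that mean; members are coloured and named. Ppara had the highest mean difference, 1.98, and all its 3 points lay above 1, while the points of Pex11a all lay below 0.

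Ratios between members within an array remove any scaling, and they show whether members changed unequally. Levels of different probes are not comparable, so only the shift of a ratio between groups is read. The log2 ratio of Ppara to Pex11a was -2.79, -2.93 and -3.87 on normal replicates 1 to 3 and -1.36, -1.0 and 1.04 on DKI replicates 1 to 3. The receptor thus gained on the peroxisomal gene by 2.76, or 6.76-fold, and by 2.02 without DKI replicate 3, with no overlap in either case.

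The receptor also gained on both mitochondrial genes, with the largest part of it in DKI replicate 3. Ppara to Cpt1a was 2.76, 2.94 and 2.34 on normal arrays and 2.94, 3.90 and 5.35 on DKI arrays. DKI replicate 1 lay just above normal replicate 2, closer than the spread between normal arrays. Ppara to Acaa2 was 2.64, 2.50 and 1.89 and then 2.91, 3.10 and 5.26. The shifts were 1.39 and 1.41 with all arrays, and 0.74 and 0.66 without DKI replicate 3. Against the mean of all 3 target probes, Ppara stood at 0.61 ± 0.42 in normal and 2.46 ± 1.26 in DKI cortex (SD, n = 3). That shift was 1.85, and 1.14 without DKI replicate 3. On slide 1, which held a single array of each group, it was 0.63. The gain on the mitochondrial genes depended on how the background of their dim probes was handled. With the negative control level subtracted, the shifts were 0.60 against Cpt1a and 0.99 against Acaa2, the groups overlapped for both, and without DKI replicate 3 the shifts were -0.093 and 0.17.

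Both mitochondrial genes gained on the peroxisomal one. The log2 ratio of Cpt1a to Acaa2 was -0.12, -0.44 and -0.45 on normal replicates 1 to 3 and -0.035, -0.81 and -0.091 on DKI replicates 1 to 3. DKI replicate 2 was the lowest and replicates 1 and 3 the highest of all arrays, so the mean shift of 0.027 lay within a wide spread (SD 0.43 in DKI) and does not show that both genes moved together. With the negative control level subtracted it was 0.39. The ratio of Acaa2 to Pex11a was -5.43, -5.42 and -5.75 on normal replicates 1 to 3 and -4.26, -4.10 and -4.22 on DKI replicates 1 to 3. The 3 DKI values lay within a narrow range (SD 0.085), DKI replicate 3 included, and above all normal values. The shift was 1.34, or 2.54-fold, and 1.35 without DKI replicate 3. Cpt1a to Pex11a moved by 1.37 and by 1.27 without that array, also with no overlap. The sizes moved with the background: Cpt1a to Pex11a shifted by 0.87 and Acaa2 to Pex11a by 0.92 with normexp, and by 2.27 and 1.88 with the negative control level subtracted, each time with no overlap. In 5 of the 6 pairs of members the groups did not overlap, and in 3 of the 6 with the negative control level subtracted. Over all 1225 pairs of mRNA probes they did not overlap in 266, 21.7%, and the members' count follows from the contrast they were picked on.

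**Figure D4:**
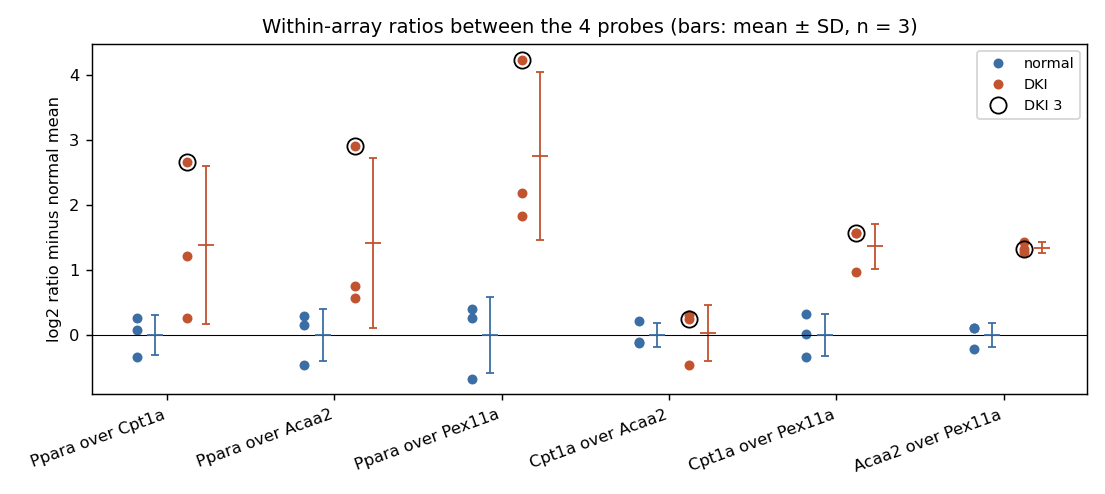
Log2 signal ratio between pairs of the 4 probes within each array, as the difference from the normal mean, for 3 normal (blue) and 3 DKI (orange) arrays, with mean ± SD beside the points and DKI replicate 3 circled. Ratios with Ppara were most shifted in DKI replicate 3, Acaa2 over Pex11a was shifted by 1.34 with little spread among DKI arrays, and Cpt1a over Acaa2 was shifted by 0.027 with DKI arrays on both sides of the normal ones.

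Spots of a probe differed less within an array than DKI arrays differed from each other. The SD among the 10 spots was 0.028 to 0.12 for Ppara, 0.043 to 0.14 for Cpt1a, 0.052 to 0.14 for Acaa2 and 0.037 to 0.14 for Pex11a, where the SD between DKI arrays was 0.91, 0.32, 0.46 and 0.42. Between normal arrays it was 0.45, 0.18, 0.098 and 0.14. The value of an array is a mean of 10 spots. From the spots, its SE on normal arrays was 0.014 to 0.024 for Ppara and 0.019 to 0.045 for Cpt1a. It was 0.033 to 0.044 for Acaa2 and 0.012 to 0.025 for Pex11a, each below the SD between normal arrays. The number of arrays, not of spots, limits the precision of the differences.

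Few other genes of these pathways were measured. Of the 69 genes listed for PPAR-alpha and fatty acid oxidation the array held 3, which are Ppara, Cpt1a and Acaa2, and of 71 listed for the peroxisome it held 1, Pex11a. Of 36 genes of lipid uptake and storage it held 1, Apoe, the lipoprotein ligand of lipid clearance. Apoe was 3.01, 2.43 and 2.32 on normal replicates 1 to 3 and 2.93, 2.74 and 2.34 on DKI replicates 1 to 3, with overlapping groups and a difference of 0.080 (SE 0.30, 95% interval -0.61 to 0.77, limma adjusted p = 0.826 over 50 probes). Actb, the actin often used as a reference, was 0.76 ± 0.32 in normal and 1.04 ± 1.08 in DKI cortex (SD, n = 3), with DKI replicate 3 lowest of all arrays at -0.21. Of the 79 listed markers of kidney, immune, liver and fat cells the array's mRNA probes held 0, so the tissue label could not be checked. For the same reason, fewer cells that express a gene and less of its RNA per cell cannot be told apart.

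The patterns most like each member over the 6 arrays were found by Pearson's r among the other mRNA probes with a symbol. These r values are a description: all probes of an array share its RNA, its scaling and the difference between groups. Nearest to Ppara was Dnajc11, a mitochondrial DnaJ protein (r = 0.923, and 0.801 without DKI replicate 3), whose own difference was 0.22 (SE 0.25). Carhsp1 (0.685) and Cav2 (0.661) followed, at -0.364 and 0.288 without DKI replicate 3. Nearest to Cpt1a were Acaa2 (0.743), Lhfp (0.673) and Gpi1 (0.659), and these stayed at 0.773, 0.687 and 0.660. Nearest to Acaa2 were Gpi1, the glucose 6-phosphate isomerase (0.889), the histocompatibility gene H2-Q7 (0.846) and Lhfp (0.821), and these stayed at 0.913, 0.972 and 0.817. Nearest to Pex11a were the annexin Anxa8 (0.953), the glutathione transferase Gsta4 (0.877) and the myelin gene Mbp (0.873), and these were 0.870, 0.661 and 0.849 without that array. Among the members, Ppara correlated with Cpt1a at 0.542, with Acaa2 at 0.393 and with Pex11a at -0.964, the largest in size of these. Without DKI replicate 3, over 5 arrays, these were 0.829, 0.955 and -0.909. The probes nearest to Ppara were not sought again over those 5 arrays, so no order of likeness is read from these values.

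Scan session and slide were not balanced between groups. The DKI arrays and normal replicate 1 shared a scan session, and the other 2 normal arrays were scanned in a different session. With session as a block, which sets the DKI arrays against normal replicate 1, the differences were 1.72 for Ppara, 0.41 for Cpt1a, 0.60 for Acaa2 and -0.64 for Pex11a. Slide 1 held normal replicate 1 and DKI replicate 1, where they were 0.95, 0.77, 0.69 and -0.48 with no replicate. The signs were those of all 6 arrays, and on slide 1 the differences of Ppara and Pex11a were smaller by more than 1.5 times. The median difference of all mRNA probes was -0.57 on slide 1, against -0.21 with all 6 arrays. Pex11a was thus lowered less on slide 1 than the median mRNA probe, and slide 1 does not set its decrease apart.

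**Figure D5:**
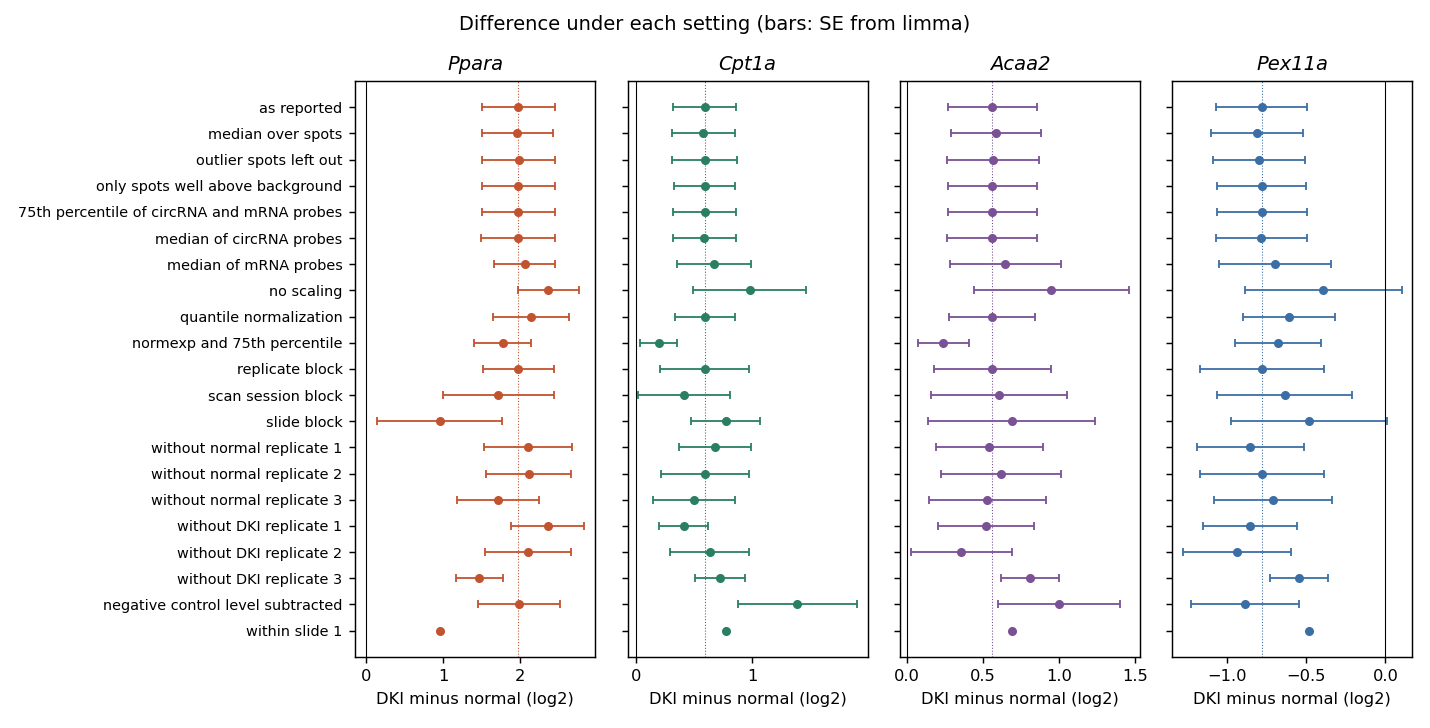
Difference between DKI and normal cortex on the log2 scale for each member under each setting (points; bars show the SE from limma, none within slide 1), with the value as reported as a dotted line and 0 as a solid line. No member changed sign under these settings, with values from 0.95 to 2.36 for Ppara, 0.20 to 1.39 for Cpt1a, 0.24 to 1.0 for Acaa2 and -0.94 to -0.39 for Pex11a.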

How the data were processed

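Total RNA was amplified with random primers, labelled with Cy3 and hybridised to one-colour Arraystar arrays, per the labels' protocols. Per the file headers, Agilent Feature Extraction 11.0.1.1 turned the images into spot values. The deposited intensities are a processed signal after background subtraction, not normalized between arrays, and raw medians of spot and local background. The authors' table of log2 values holds circRNA probes only and was not used. All 10 spots of a probe were averaged as log2 processed signal, and the 75th percentile of the 14236 circRNA probes of the array was subtracted. Limma 3.58.1 (lmFit and eBayes, R 4.3.3) was fitted to the 50 mRNA probes, with Benjamini-Hochberg adjustment over all 50 and a threshold of 0.05. The code was checked on simulated data with the same noise for every probe and array. That check does not show how the fit behaves on these arrays, whose spread was unequal. RefSeq transcripts of GRCm38.p6 gave 44 of 50 accessions a symbol and left 6 without. The members, gene lists and tests were chosen with earlier results of these data known. The genes named are the 4 members, measured genes of the lists, a reference gene and, for each member, the 3 probes most correlated with it. Alternatives were other spot averages, scalings, background corrections, blocks and leaving out each array.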

Additional observations from a re-analysis of the deposited data

How the results depend on the processing

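All 4 differences kept their sign under each of the 20 alternatives run, but not all of these were separate checks. The replicate block is balanced between groups and could not move the differences. Keeping only spots well above background removed no spot of the members. The slide block gives the same differences as slide 1 alone, since the other slides held a single group each. Against the mean of the negative controls, a scale added later, Pex11a differed by 0.0033. With no scaling between arrays the differences were 0.98 for Cpt1a, 0.95 for Acaa2 and -0.39 for Pex11a, and limma called 1 of the 50 mRNA probes. With normexp Cpt1a was 0.20. With the negative control level subtracted, chosen after seeing the data, Cpt1a was 1.39 and Acaa2 1.0. With a slide block, and within slide 1 (also added later), Ppara was 0.95 and its shift against the mean of the 3 targets 0.63. Leaving out 1 array gave 1.47 to 2.36 for Ppara, 0.41 to 0.73 for Cpt1a, 0.36 to 0.81 for Acaa2, -0.94 to -0.55 for Pex11a and 1.14 to 2.33 for the shift against the targets. The count of probes called was then 0 to 15, and all counts but the 15 (5 higher, 10 lower), from the fit that left out DKI replicate 3, were 0. For none of these the cause was tested.

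With the replicate block limma called 1 of the 50 mRNA probes. Each replicate number holds 1 array of each group, so the differences of 1.98, 0.59, 0.56 and -0.78 could not change. Replicate numbers were treated as names only, since circRNA deviations of same-numbered arrays correlated at -0.41, 0.39 and -0.095. Signal over background limits Cpt1a and Acaa2, which lay within the range of the negative controls on every array.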
